A study of Mus musculus with 8 samples.

Results

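The remote zone of the wild type (WT) mouse heart after myocardial infarction (MI) was compared with its border zone, gene by gene, in 1 RNA-seq library of each. In the series, RNA came from male WT mice and male mice with whole-body knockout (TKO) of TIGAR, a phosphatase that restrains glycolysis. The methods place permanent ligation of the left anterior descending coronary artery at 16 weeks of age and divide those hearts into infarct, border, and remote zones; the sources used here do not name when the zones were taken. A left ventricle library of each genotype completes the 8 libraries, and whether its hearts were sham-operated or unoperated was not named. The background strain of the WT mice was not given in the sources used here. RNA from 3 mice was pooled for the infarct zone, and the number pooled for the border and remote zones was not named, so neither zone has a replicate and no *P* value can be given. Of 16994 genes in the table, 12999 had a mean of at least 1 CPM (a gene's count for each 1000000 counts of its library) over the 8 libraries and were compared. *BC053393*, with 19 to 49 counts a library and a mean of 1.0009 CPM, was the last gene kept, and *Sv2b*, with 0.99997 CPM, the first left out; these were named after their values were seen.

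After a coronary artery is tied off, the muscle it fed dies and is replaced by scar. The border zone is the living muscle next to the scar, where stretched cardiomyocytes re-express genes of the fetal ventricle and activated fibroblasts lay down collagen. The remote zone is muscle away from the infarct. Atrial cardiomyocytes differ from ventricular ones in their myosin light chains and secreted peptides, and the conduction system uses pacemaker channels and a transcription factor program of its own, so genes of these cells can be followed in a dissected piece of heart.

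Total estimated counts were 32245722 for border and 33748466 for remote WT tissue, within the range of 27429240 to 33799249 for all 8 libraries. Transcripts encoded in mitochondrial DNA took 38.0% of these border counts and 39.3% of the remote counts. Library totals were scaled by TMM factors (trimmed mean of *M* values) of 0.956 for the border zone and 0.902 for the remote zone. The filter used unscaled totals, whereas CPM levels from here on use the TMM-scaled totals. Ratios below are remote over border on this scale, with 95% exact binomial intervals in parentheses. No molecular tags are described for these libraries, and the intervals cover counting error only and not the difference between mice or dissections. A gene was counted as 2-fold different when its ratio passed 2 or 0.5 after a prior count of 2 was added, and 3 counts or fewer (0.0974 CPM in the border zone and 0.0986 CPM in the remote zone) were taken as the floor. *Tigar* had 1066 to 2215 counts in the 4 WT libraries and 51 to 87 in the 4 TKO libraries, as their labels state. Both zones are labelled left ventricle. The cardiomyocyte gene *Myh6* (α-myosin heavy chain, of atria and ventricle alike in the mouse) and *Myl2* (ventricular regulatory light chain) had 161279 and 164161 border counts and 160486 and 170541 remote counts, so both libraries held ventricular muscle, but these genes do not tell the zones apart. The remote library also held atrial and lung genes, described below, which a ventricular label does not cover.

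Most genes differed little between the 2 zones. The ratio lay within 1.2-fold of 1 for 9224 of 12999 genes (71.0%), and the 5th and 95th percentiles of the ratio were 0.633 and 1.35. In the remote zone 140 genes (1.08% of those compared) were at least 2-fold higher and 306 (2.35%) at least 2-fold lower, 446 in all (3.43%). Of these, 25 higher and 27 lower genes had 3 counts or fewer in 1 of the 2 libraries. Among 11052 genes with at least 100 counts in the higher of the 2 libraries, 57 were 2-fold higher and 133 were 2-fold lower. In TKO hearts the same comparison, made with 2 other libraries, gave 114 genes 2-fold higher (0.877%) and 227 lower (1.75%). Of the genes 2-fold higher in the WT remote zone, 30 were 2-fold higher in the TKO remote zone as well, which is 21.4% of the WT and 26.3% of the TKO genes. For lower genes the overlap was 89, or 29.1% of the WT and 39.2% of the TKO genes. The log2 ratios of the 2 genotypes had a Pearson *r* of 0.20 and a Spearman rho of 0.24 over all 12999 genes, and 0.36 and 0.27 over the 11362 genes with at least 50 counts in all 4 libraries; genes are not independent replicates, so these values are descriptions.

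**Figure D1:**
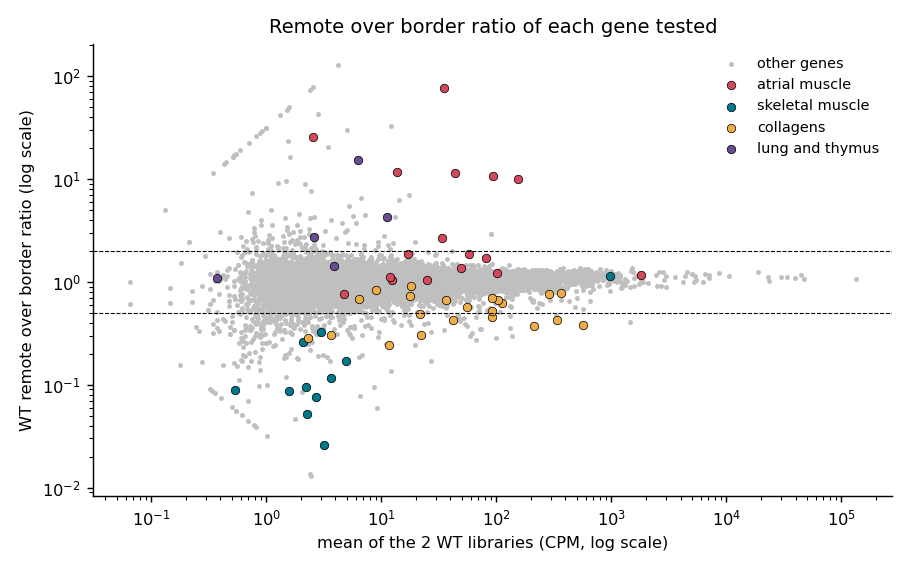
Remote over border ratio of each gene compared in WT hearts (log scale, after a prior count of 2) against the mean of the 2 WT libraries (CPM, log scale). Each point is 1 gene, the 4 genes with no count in either library are not drawn, and dashed lines mark 2-fold. *Myl7*, *Myl4*, *Sln*, *Bmp10*, and *Mybphl* sit near or above 10-fold, 10 skeletal muscle genes sit below the lower line, and the collagens lie between 0.242 and 0.905.

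Genes of atrial muscle were the highest group of cardiomyocyte genes in the WT remote zone. *Myl7* (atrial regulatory light chain, ENSMUSG00000020469, chromosome 11 from 5896637 to 5898782 of GRCm38) had 491 counts in border and 5227 in remote tissue, a ratio of 10.8 (9.83 to 11.85). *Myl4* (atrial essential light chain, ENSMUSG00000061086, chromosome 11 from 104550663 to 104595753) had 859 and 8492 counts (ratio 10.01, 9.33 to 10.75). Both zones stood above the WT left ventricle, where *Myl7* had 152 counts and *Myl4* had 245. *Sln* (sarcolipin, an inhibitor of the calcium pump SERCA, ENSMUSG00000042045, chromosome 9 from 53850164 to 53854560) had 214 border and 2461 remote counts, an 11.6-fold difference (10.1 to 13.45). *Mybphl* (a myosin-binding protein of atrial muscle, ENSMUSG00000068745, chromosome 3 from 108364911 to 108380057) had 65 and 772 counts (ratio 12.03, 9.33 to 15.7). The widest gap of the group belonged to *Bmp10*, a growth factor secreted by atrial cardiomyocytes (ENSMUSG00000030046, chromosome 6 from 87428994 to 87437677), with 26 counts against 2134, a ratio of 83.1 (56.6 to 127.5). *Hamp* (hepcidin, the iron-regulating peptide, ENSMUSG00000050440, chromosome 7 from 30942368 to 30944032) had 4 and 152 counts (ratio 38.5, 14.7 to 143.0).

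The same 6 genes were higher in the TKO remote zone than in the TKO border zone. For *Myl7* the TKO counts were 271 and 2031, a ratio of 7.38 (6.502 to 8.41). The TKO ratios were 8.11 for *Myl4*, 7.465 for *Sln*, 8.26 for *Mybphl*, 30.05 for *Bmp10*, and 5.98 for *Hamp*. Summed over *Myl7*, *Myl4*, *Sln*, *Bmp10*, and *Mybphl*, the level in WT hearts was 16.2 CPM for the left ventricle and 61.4, 53.7, and 627.2 CPM for the infarct, border, and remote zones. In TKO hearts it was 20.3, 7.41, 27.5, and 221.9 CPM in the same order. The 2 remote zone libraries were thus the highest of the 8, and the WT one was above the TKO one. In bulk tissue, more cells of a type and more RNA per cell cannot be told apart.

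Not all atrial genes shared the size of this difference. Of 20 listed, 17 passed the filter on low values, 16 of these had a ratio above 1, and 7 were 2-fold higher, against 1.08% of all genes; the median ratio was 1.86, against 1 for all genes and 1.43 for the same 17 in TKO hearts. The seventh was *Stard10*, a lipid transfer protein, with 557 and 1485 counts (ratio 2.70, 2.45 to 2.98). *Nppa* (atrial natriuretic peptide), which the stressed ventricle also makes, had 51584 border counts and 59713 remote counts, a ratio of only 1.17 (1.16 to 1.19), and was higher still in the WT infarct zone (2987 CPM, against 1962 CPM for remote tissue). *Kcnj3* and *Kcnj5*, the 2 subunits of the acetylcholine-gated potassium channel, had ratios of 1.88 (1.76 to 2.02) and 1.37 (1.27 to 1.47), and *Chrm2*, the muscarinic receptor that opens it, had 1.22 (1.16 to 1.28). *Tbx5*, a transcription factor of the atria and conduction system, had 366 and 673 counts (ratio 1.86, 1.64 to 2.12), and *Dkk3*, a secreted Dickkopf family protein, had 1.72 (1.63 to 1.82). The level of *Tbx5* was 19.9 CPM in the WT left ventricle, 11.9 in border, and 22.1 in remote tissue, so its remote level was near that of the left ventricle. In the same order *Kcnj5* had 49.8, 42.0, and 57.4 CPM and *Kcnj3* 55.8, 40.6, and 76.4. For *Kcna5* (an atrial potassium channel), *Adora1* (an adenosine receptor), and *Nr2f2* (COUP-TFII, an atrial identity factor) the ratios were 1.04, 1.11, and 1.05, with intervals that held 1. *Nr2f1* was the exception below 1, at 0.767 (0.603 to 0.974). Among the genes below the filter, *Dhrs9* had 21 and 15 counts and *Fgf12* 0 and 32. *Bmp10* and *Hamp* passed the filter mainly through the remote zone libraries, so a high ratio was likely for these genes in advance. Scaled by total counts alone, 14 of the 17 had a ratio above 1, and *Kcna5*, *Nr2f2*, and *Nr2f1* were below it.

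**Figure D2:**
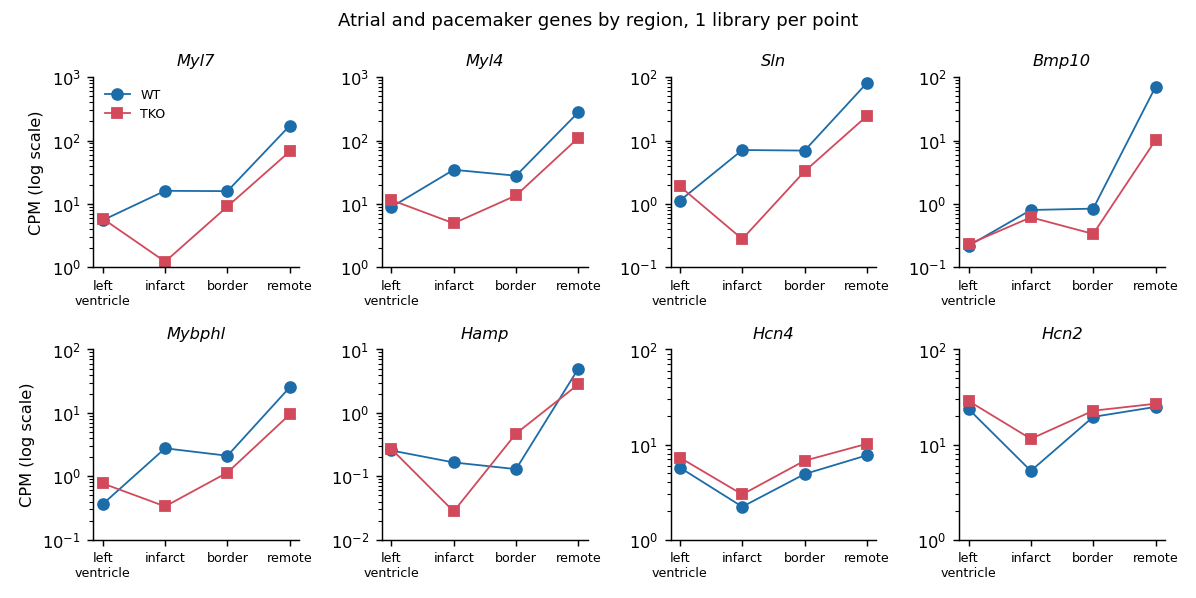
Levels of 6 atrial genes and 2 pacemaker channel genes (CPM, log scale, a different range in each panel) in the 4 regions of WT (blue circles) and TKO (red squares) hearts. Each point is 1 library with no error bar, and lines only join libraries of 1 genotype. The remote zone is the highest WT point in every panel, and *Hcn4* spans a narrower range (2.22 to 7.72 CPM in WT) than *Bmp10* (0.219 to 70.1 CPM).

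Promoters are shown for 4 of the atrial genes that were higher together, those with a match to a motif searched. *Myl4* and *Stard10* had no match and are not shown. The promoters run from 250 bases before to 50 after the RefSeq start (GRCm38.p6), 5′ to 3′ on the gene's strand. Capitals mark the GATA-factor motif AGATAA or its reverse complement in *Bmp10* (chr6:87428744-87429043, plus strand), *Mybphl* (chr3:108364661-108364960, plus strand), and *Hamp* (chr7:30943980-30944279, minus strand). In *Myl7* (chr11:5898733-5899032, minus strand) capitals mark a CArG box, the motif of serum response factor.
Bmp10: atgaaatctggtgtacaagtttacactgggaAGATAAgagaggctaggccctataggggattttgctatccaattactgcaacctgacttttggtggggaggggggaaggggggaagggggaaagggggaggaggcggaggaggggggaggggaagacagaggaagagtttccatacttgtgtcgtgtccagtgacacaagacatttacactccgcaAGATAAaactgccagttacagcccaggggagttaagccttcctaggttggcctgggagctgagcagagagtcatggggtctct
Mybphl: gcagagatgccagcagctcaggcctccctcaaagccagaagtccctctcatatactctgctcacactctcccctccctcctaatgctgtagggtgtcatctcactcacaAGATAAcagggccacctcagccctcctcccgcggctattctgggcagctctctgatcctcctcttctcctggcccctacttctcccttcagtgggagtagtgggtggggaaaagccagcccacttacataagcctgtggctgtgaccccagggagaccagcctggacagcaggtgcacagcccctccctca
Hamp: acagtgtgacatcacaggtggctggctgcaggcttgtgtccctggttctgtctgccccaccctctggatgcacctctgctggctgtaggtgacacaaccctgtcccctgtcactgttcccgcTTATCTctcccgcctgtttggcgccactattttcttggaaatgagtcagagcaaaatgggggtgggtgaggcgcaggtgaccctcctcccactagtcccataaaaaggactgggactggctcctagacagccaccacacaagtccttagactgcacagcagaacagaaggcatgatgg
Myl7: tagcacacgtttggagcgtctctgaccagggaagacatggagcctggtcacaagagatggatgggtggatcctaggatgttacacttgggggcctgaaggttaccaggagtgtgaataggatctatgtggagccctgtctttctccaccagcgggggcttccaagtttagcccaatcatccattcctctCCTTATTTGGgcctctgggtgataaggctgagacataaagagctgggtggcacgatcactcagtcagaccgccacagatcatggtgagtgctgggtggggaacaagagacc

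Of the 7 atrial genes 2-fold higher in the remote zone, 6 had a promoter in the RefSeq table. On both strands, AGATAA was found in 3 of these 6, with 2 matches in *Bmp10* at 219 and 33 bases before the start, and in 11.4% of 27025 mouse promoters of this length. The CArG box was found in 1 of the 6 and in 1.59% of all promoters. The T-box motif AGGTGT, found in 13.9% of all promoters, was in none of the 6. Nor was the E-box CAGCTG, an element of muscle promoters found in 16.1%, in any of them. The TATA box sequence TATAAA (14.2% of all promoters) and the MEF2 motif (3.70%) were also absent from these 6 windows. The NKX2-5 motif TNAAGTG, present in 11.5% of all promoters, was likewise not found. No match overlapped another. A match describes letters and not a bound factor.

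Genes of the conduction system lay nearer to 1 than those of atrial muscle, with medians of 1.27 and 1.86. *Hcn4*, the main pacemaker channel (ENSMUSG00000032338, chromosome 9 from 58823412 to 58863175), had 151 border and 235 remote counts, a ratio of 1.58 (1.28 to 1.95), and 1.505 (1.26 to 1.81) in TKO hearts. *Hcn2*, another pacemaker channel, had 603 and 758 counts (ratio 1.27, 1.14 to 1.42). The T-type calcium channels *Cacna1g* and *Cacna1h* had ratios of 1.67 (1.45 to 1.93) and 1.75 (1.499 to 2.04), and *Kcne1*, a potassium channel subunit, had 1.56 (1.28 to 1.91). For the ventricular conduction transcription factors *Irx3* and *Etv1* the ratios were 1.35 (1.245 to 1.47) and 1.32 (1.15 to 1.52).

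The transcription factors that define nodal cells did not show a like difference. *Tbx3* had 310 and 346 counts (ratio 1.13, 0.967 to 1.32), and *Tbx2* had 1.13 (0.983 to 1.31). *Isl1*, a marker of the sinus node, had 4 counts in each zone, and *Shox2*, which acts with it, had 61 and 34 (ratio 0.564, 0.360 to 0.872). Among the gap junction genes, *Gja5* (connexin 40) had a ratio of 1.11 (0.924 to 1.34) and *Gjc1* (connexin 45) 1.13 (1.01 to 1.27), while *Gjd3* had 7 and 4 counts. The ratios of *Gnao1*, *Id2*, *Bmp2*, and *Cpne5* were 0.944, 0.991, 0.770, and 1.30, all with intervals that held 1. In all, 19 of 26 listed conduction genes passed the filter, and 14 of these had a ratio above 1, as did 6504 of all 12999 genes. The median was 1.27 in WT and 1.18 in TKO hearts, and 2 genes were 2-fold higher, against 1.08% of all genes. *Cntn2* (contactin-2, a Purkinje fiber adhesion molecule), 1 of these 2, had 2 border and 170 remote counts, a ratio of 86.1 with a wide interval (23.5 to 716.5). Its counts in the other 6 libraries ran from 68 to 255, so the border zone library was the low one. Among the other genes below the filter, *Scn10a* had 9 and 34 counts, *Rgs6* 24 and 19, *Cacna1d* 0 and 3, *Slitrk5* 2 and 2, and *Vsnl1* 0 in both.

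In the border zone, the largest difference among stress genes was in the fetal myosin. *Myh7* (β-myosin heavy chain, ENSMUSG00000053093, chromosome 14 from 54970684 to 54994626) had 64127 border and 25532 remote counts, a ratio of 0.403 (0.397 to 0.409). Its level was 2081 CPM in border, 1155 in infarct, 839.1 in remote, and 339.9 in left ventricle tissue, so the border zone was the highest WT region. In TKO hearts the ratio was 0.659 (0.644 to 0.673), and the infarct zone was the highest region at 1190 CPM. *Ankrd1*, a stretch-responsive titin-binding protein, had 4361 and 2202 counts (ratio 0.511, 0.486 to 0.538). *Xirp2*, an actin-binding protein of the intercalated disc, had 22821 and 12353 (ratio 0.548, 0.536 to 0.560), and *Nppb*, which encodes B-type natriuretic peptide, had 15855 and 10289 (ratio 0.657, 0.641 to 0.674).

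*Acta1* (skeletal α-actin, part of the fetal program) had a ratio of 0.700 (0.684 to 0.716) in WT and 0.517 (0.503 to 0.531) in TKO hearts. The stress cytokine *Gdf15* had 429 and 251 counts (ratio 0.593, 0.505 to 0.694), and *Ccn2* (connective tissue growth factor) had 0.608 (0.588 to 0.629). The Z-disc and muscle ankyrin genes *Synpo2l* and *Ankrd23* had ratios of 0.636 and 0.668, *Uchl1* (a deubiquitinating enzyme) and *Tnni1* (slow skeletal troponin I) 0.704 and 0.708, and *Flnc* (filamin C) 0.835. *Xirp1* (a disc protein) and *Enah* (an actin regulator) were nearer to 1, at 0.935 (0.895 to 0.976) and 0.922 (0.867 to 0.981). Of the 20 listed genes 6 had a ratio above 1, from 1.025 for *Csrp3* (muscle LIM protein) to 1.17 for *Nppa*, with *Clu*, *Cryab*, *Myocd*, and *Dstn* between them. The median of the 20 was 0.708 in WT hearts and 0.937 in TKO hearts. *Myh7* was the only one of them that was 2-fold lower, against 2.35% of all genes. With total counts alone *Ankrd1* also passed 2-fold, at 0.483.

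Adult contractile genes were close to even. The 18 listed ventricular sarcomere genes ranged from 0.809 for *Myom1* (myomesin, of the M-band) to 1.36 for *Tcap* (telethonin, of the Z-disc), with a median of 1.01. *Myh6* had a ratio of 1.01 (1.001 to 1.015), *Myl2* 1.05, *Tnni3* (cardiac troponin I) 1.26, and *Mybpc3* (myosin-binding protein C) 0.899. The side of 1 on which the median fell depended on the scaling, since it was 0.952 with total counts alone.

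Collagen genes were lower in the remote zone without exception. All 22 listed collagens passed the filter, all 22 had a ratio below 1, and 10 were 2-fold lower, against 2.35% of all genes. Their median ratio was 0.548 in WT and 0.695 in TKO hearts, where all 22 were again below 1 and 5 were 2-fold lower. *Col3a1*, a fibrillar collagen of scar (ENSMUSG00000026043, chromosome 1 from 45311538 to 45349706), had 25374 border and 9506 remote counts, a ratio of 0.379 (0.371 to 0.388). *Col1a1* had 9488 and 3466 counts (0.370, 0.356 to 0.385) and *Col1a2* 14634 and 6153 (0.426, 0.413 to 0.439). The lowest ratios belonged to *Col8a2* (0.240, 0.198 to 0.289) and to *Col11a1*, *Col22a1*, and *Col12a1* (0.271, 0.295, and 0.305). *Col4a1*, of the basement membrane, had 0.785 (0.765 to 0.806).

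Markers of activated fibroblasts followed the collagens. *Postn* (periostin, a matrix protein of injury-activated fibroblasts) had a ratio of 0.482 (0.468 to 0.496) in WT and 0.477 (0.453 to 0.502) in TKO hearts. *Sfrp2*, a secreted Wnt modulator, had 2780 and 821 counts (0.299, 0.276 to 0.323), *Lox*, the collagen cross-linking enzyme, 1269 and 404 (0.322, 0.288 to 0.361), and *Cthrc1* 135 and 40 (0.300, 0.205 to 0.430). The median of this list was 0.537 in WT and 0.626 in TKO hearts, and 9 genes were 2-fold lower, against 2.35% of all genes. Of its 22 genes, 21 had a ratio below 1. The exception was *Acta2* (smooth muscle actin), at 1.005 (0.950 to 1.06), which was below 1 with total counts alone. Matricellular and matrix turnover genes were all below 1, 20 of 20, with a median of 0.588. Of these, 5 were 2-fold lower, against 2.35% of all genes. *Mmp3*, a matrix metalloproteinase, had 984 and 237 counts (ratio 0.244, 0.211 to 0.281).

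Genes of the late scar were lower too. *Comp* (cartilage oligomeric matrix protein, ENSMUSG00000031849, chromosome 8 from 70373558 to 70382066) had 6527 border and 1937 remote counts, a ratio of 0.301 (0.286 to 0.316), and *Cilp* (cartilage intermediate layer protein) 6034 and 2112 (0.354, 0.337 to 0.373). *Chad* (chondroadherin) had 135 and 164 counts, with an interval that held 1, and *Cytl1*, a secreted cytokine-like protein of cartilage, was higher at 2.32 (1.97 to 2.74). Of 14 genes of this list that passed the filter, 11 were below 1, and the median was 0.629. Resting fibroblast genes were nearer to 1, with a median of 0.865 and none of 15 past 2-fold. *Pdgfra* had a ratio of 0.865 (0.796 to 0.940) and *Tcf21* 0.883 (0.766 to 1.02).

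**Figure D3:**
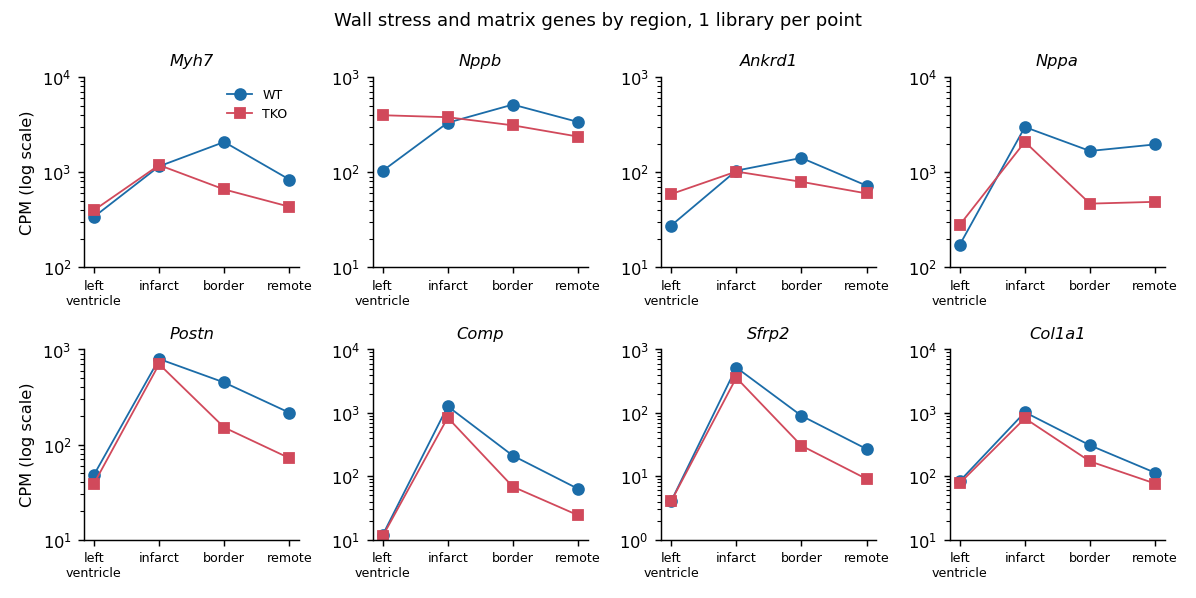
Levels of 4 wall stress genes (top row) and 4 matrix genes (bottom row) in CPM on log scales that differ between panels, for the 4 regions of WT (blue circles) and TKO (red squares) hearts. Each point is 1 library without an error bar, and lines only join libraries of 1 genotype. *Myh7*, *Nppb*, and *Ankrd1* are highest in the WT border zone, whereas the matrix genes are highest in the infarct zone and lower in the remote than in the border zone in both genotypes.

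Most of the lower genes were high in infarct tissue. Of the 306 genes 2-fold lower in the WT remote zone, 223 (72.9%) were 2-fold higher in the TKO infarct zone than in the TKO left ventricle. Over all genes that share was 16.2%. Of the 140 higher genes, 54 (38.6%) met that limit. Another 43 (30.7%) were 2-fold lower in the TKO infarct zone than in the TKO left ventricle, against 7.62% of all genes. The WT ratios do not use the counts of these TKO libraries, but the filter on mean CPM does. Genes could thus be kept through their infarct level, and these shares are descriptions and not support. Activated fibroblast genes moved with these results: their summed level (22 genes) was 736.3 CPM in the WT left ventricle and 6674, 2386, and 1344 CPM in the WT infarct, border, and remote zones, with none of them at 0 in any library. The 15 resting fibroblast genes summed to 2179 CPM in the WT left ventricle and 7800, 3146, and 2823 CPM in the same 3 zones. The part of tissue composition in these differences was not tested.

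Leukocyte genes were moderately lower in the remote zone. *Ptprc* (CD45, on all leukocytes) had 600 and 451 counts (ratio 0.761, 0.672 to 0.862), and 10 of 11 pan-leukocyte genes were below 1, with a median of 0.7555 in WT and 0.816 in TKO hearts. All 6 MHC class II genes that passed the filter were below 1, with a median of 0.706, among them *Cd74* (invariant chain) at 0.768 (0.735 to 0.803). Macrophage genes were mixed. *Cd163*, *Lyve1*, *Folr2*, and *Cbr2*, of resident macrophages, had ratios from 1.52 to 1.92, while *Csf1r*, on all macrophages, had 0.950 (0.890 to 1.02). Of all 13 resident macrophage genes, 8 were above 1 and 5 below, and none was 2-fold higher. Their median was 1.28 in WT and 0.9935 in TKO hearts. Of the recruited macrophage genes, *Ccr2* had a ratio of 0.618 (0.520 to 0.732) and *Arg1* had 84 and 8 counts (0.0964, 0.0403 to 0.199), whereas *Spp1* (osteopontin) was at 1.253 (1.15 to 1.37). *Chil3*, with 153 and 651 counts, and *Mmp12*, with 229 and 546, were higher at 4.31 (3.61 to 5.17) and 2.41 (2.07 to 2.83). In all, 11 of 15 were below 1 and 4 above, with a median of 0.857 in WT and 0.732 in TKO hearts. Of these, 2 were 2-fold lower, against 2.35% of all genes, and 2 were 2-fold higher, against 1.08%.

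Antibody genes showed some of the widest gaps. *Ighg1*, an immunoglobulin heavy chain gene, had 532 border and 29 remote counts, a ratio of 0.0552 (0.0366 to 0.0802). *Igkc*, the constant region of the kappa light chain, had 3213 and 861 counts (0.271, 0.251 to 0.293), and *Jchain*, the joining chain of secreted antibody, 1127 and 438 (0.394, 0.352 to 0.440). The TKO ratios were 0.0403, 0.1755, and 0.227. *Ighg2b*, another heavy chain gene, had 661 and 88 counts (0.135, 0.107 to 0.169), and the light chain segment *Igkv5-43* 107 and 3 (0.0284, 0.00576 to 0.0852). *Cd3d*, of T cells, had 41 and 24 counts, with an interval that held 1 (0.343 to 1.01), and *Cd79b*, of B cells, 45 and 48. Counting assigns reads among near-identical immunoglobulin segments, so values of single variable segments are uncertain. *Hp* (haptoglobin, an acute phase protein) had 1432 and 241 counts (ratio 0.170, 0.148 to 0.196).

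Genes of fatty acid oxidation were all slightly higher in the remote zone. All 23 that passed the filter had a ratio above 1, from 1.06 to 1.355, none was 2-fold higher, and the median was 1.17 in WT and 1.035 in TKO hearts. *Etfb*, an electron carrier subunit, had 9886 and 13227 counts (1.355, 1.32 to 1.39), *Acaa2*, the last enzyme of the cycle, 16554 and 21764 (1.33, 1.31 to 1.36), and *Cpt1b*, which admits fatty acids to mitochondria, 12993 and 13964 (1.09, 1.06 to 1.12). With total counts alone all 23 were still above 1, with a median of 1.11. The 13 genes encoded in mitochondrial DNA had a median of 1.10 in WT and 1.005 in TKO hearts, from 0.918 for *ATP8* to 1.26 for *COX2*. Glycolysis genes had a median of 1.025, which was 0.967 with total counts alone.

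Repolarizing potassium channels were higher in 13 of 14 cases, as were 6504 of all 12999 genes. *Kcnv2*, a modulatory subunit, had 182 and 295 counts (1.64, 1.36 to 1.99), *Kcnh2*, of the rapid delayed rectifier current, 1982 and 2825 (1.44, 1.36 to 1.53), and *Kcnd2*, of the transient outward current, 435 and 582 (1.355, 1.19 to 1.54). *Kcnj11*, the pore of the ATP-sensitive channel, was the only one of the 14 that was 2-fold higher, against 1.08% of all genes. It had 25 and 63 counts (2.55, 1.58 to 4.23), and its TKO ratio was 2.12. The median was 1.36 in WT and 1.10 in TKO hearts, and *Kcna4*, at 0.884 (0.587 to 1.33), was the 1 below 1. With total counts alone 12 of 14 were above 1. For calcium cycling, *Atp2a2* (SERCA2, the calcium pump) had 241818 and 291093 counts (1.22, 1.21 to 1.23) and *Pln* (phospholamban, its inhibitor) 140590 and 164617 (1.19, 1.18 to 1.19), with a median of 1.03 over 16 genes that was 0.976 with total counts alone.

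Other lists of the heart wall stayed near 1. The medians were 0.950 for capillary endothelium, 1.003 for smooth muscle and pericytes (0.947 with total counts alone), 0.898 for endocardium, 0.973 for the intercalated disc, and 1.12 for cardiac transcription factors. *Hopx* had a ratio of 1.30 (1.26 to 1.35) and *Gata4* 0.971 (0.917 to 1.03). In the endocardial list 7 of 9 genes were below 1. *Nfatc1* was lower, with 430 and 183 counts (0.431, 0.361 to 0.514), against 1.07 in TKO hearts. *Npr3* was higher, with 550 and 738 counts (1.36, 1.215 to 1.52), against 0.965 in TKO hearts. In the epicardial and mesothelial list 6 of 14 genes were above 1 and 8 below, with a median of 0.935 in WT and 0.626 in TKO hearts. *Tbx18* and *Krt19* had ratios of 0.583 and 0.554, and *Upk3b* 1.89 (1.47 to 2.44). *Msln*, with 0 and 27 counts, and *Upk1b*, with 27 and 59, were the 2 that were 2-fold higher, against 1.08% of all genes. *Sox10*, the transcription factor of Schwann cells, had 0 border and 54 remote counts in WT hearts, at least 18.2-fold higher, and 0 and 52 counts in TKO hearts. It was the only 1 of 8 Schwann and neuronal genes that was 2-fold higher, against 1.08% of all genes. Of these 8, 6 were above 1 and 2 below, with a median of 1.23 in WT and 1.17 in TKO hearts. Summed over the 13 genes of this list with counts given, the level was 28.3 CPM in border and 31.4 CPM in remote WT tissue. Of 9 adipocyte genes 6 were above 1, with a median of 1.13, among them *Lpl* (lipoprotein lipase, which cardiomyocytes also make) at 1.24 (1.225 to 1.249) and *Pparg*, the adipocyte transcription factor, at 1.29 (1.07 to 1.56). Below 1 were *Cidec*, a lipid droplet protein (0.544, 0.352 to 0.828) and the adipokines: *Cfd* (adipsin) had 337 and 61 counts (0.183, 0.137 to 0.241) and *Adipoq* (adiponectin) 79 and 28 (0.359, 0.225 to 0.559).

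Signalling and cell state lists also lay near 1. The median was 0.967 for TGF-β and Wnt genes, in which the TGF-β ligands differed: *Tgfb1* had a ratio of 1.02 (0.934 to 1.12), *Tgfb2* 0.594 (0.522 to 0.676), and *Tgfb3* 0.551 (0.4985 to 0.609). Of the secreted Wnt inhibitors, *Wif1* had 76 and 289 counts (3.85, 2.98 to 5.025) and *Sfrp1* 1936 and 914 (0.478, 0.441 to 0.517), with TKO ratios of 1.19 and 0.626. Interferon-stimulated genes had a median of 0.976, immediate early genes 0.902, circadian clock genes 0.9515, and red blood cell genes 0.986. The median of the cell cycle list was 1.04 (0.982 with total counts alone), with *Mki67* at 1.06 (0.904 to 1.24) and *Top2a* at 0.924 (0.776 to 1.10).

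**Figure D4:**
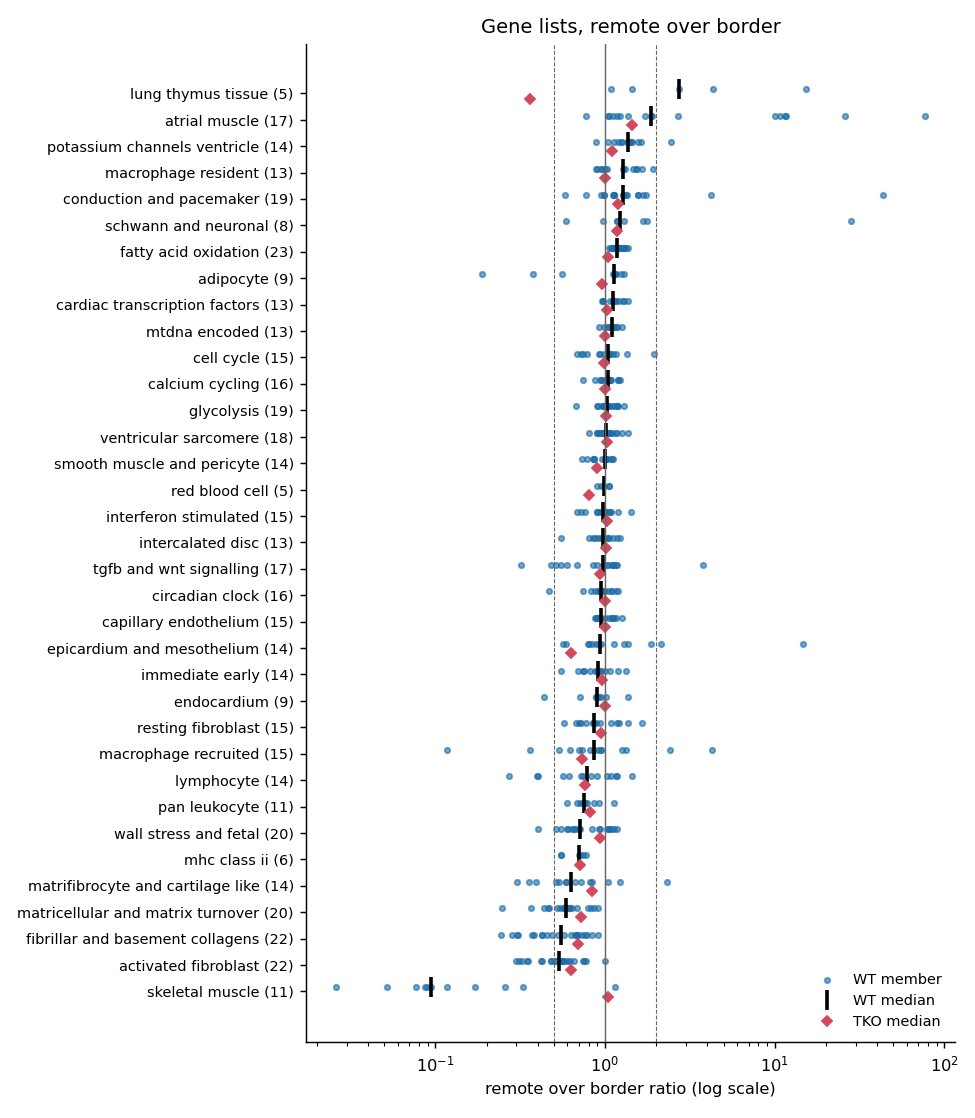
Remote over border ratios (log scale, after a prior count of 2) of the 35 gene lists, with the number of genes compared in parentheses. Blue points are single genes in WT hearts, black bars their median, and red diamonds the median of the same genes in TKO hearts, with dashed lines at 2-fold. Lists run from a WT median of 0.0941 for skeletal muscle to 2.715 for lung and thymus, the 2 lists whose WT and TKO medians lie farthest apart, and matrix lists lie below 1 in both genotypes.

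Genes of skeletal muscle marked the WT border zone and infarct zone libraries. *Myh4*, a myosin of fast skeletal fibers (ENSMUSG00000057003, chromosome 11 from 67238029 to 67260446), had 193 border and 3 remote counts in WT hearts, a ratio of 0.0157 (0.00322 to 0.0467). The WT infarct zone had 1486 counts, the WT left ventricle 3, and the 4 TKO libraries 1 to 6. *Myh1*, *Mylpf*, *Tnnc2*, and *Tnnt3*, also of fast fibers, had ratios of 0.0645, 0.0375, 0.0797, and 0.109. All 11 listed genes passed the filter, and 10 were 2-fold lower in the WT remote zone, against 2.35% of all genes, with a list median of 0.0941 against 1.04 in TKO hearts. The exception was *Ckm* (muscle creatine kinase), which the heart also expresses, at 1.15. Without *Ckm*, the 10 genes summed to 235.8 CPM in the WT infarct zone and 47.0 in the border zone, against 4.17 to 6.13 CPM in the other 6 libraries. Genes such as *Myh4* and *Mylpf* (at most 0.199 and 0.448 CPM in those 6) passed the filter through the WT infarct and border zones. A low remote over border ratio was thus likely for them in advance, and the count of 10 is a description and not support. These 10 genes are among the 306 lower ones, and the source of their RNA in those 2 WT libraries was not tested.

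Genes of lung epithelium were higher in the WT remote zone than in the WT border zone. *Sftpc* (surfactant protein C) had 129 and 556 counts (ratio 4.36, 3.597 to 5.33), and *Scgb1a1* (the club cell secretory protein) 22 and 359 (ratio 16.5, 10.75 to 26.7). *Sftpa1*, another surfactant protein, had 42 and 116 counts (2.80, 1.95 to 4.08), and *Sftpb*, named here to complete the surfactant genes after its values were seen, had 11 and 12. In TKO hearts *Sftpc* and *Sftpa1* were lower in the remote zone, at 0.255 (0.171 to 0.373) and 0.197 (0.0589 to 0.524). Together the 4 genes summed to 6.62 CPM in border and 34.3 CPM in remote WT tissue. The infarct zone libraries held the most, 402.5 CPM in TKO and 157.4 in WT hearts, and the 2 left ventricle libraries the least. Of 8 listed lung and thymus genes 5 passed the filter, and all 5 had a ratio above 1.

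**Figure D5:**
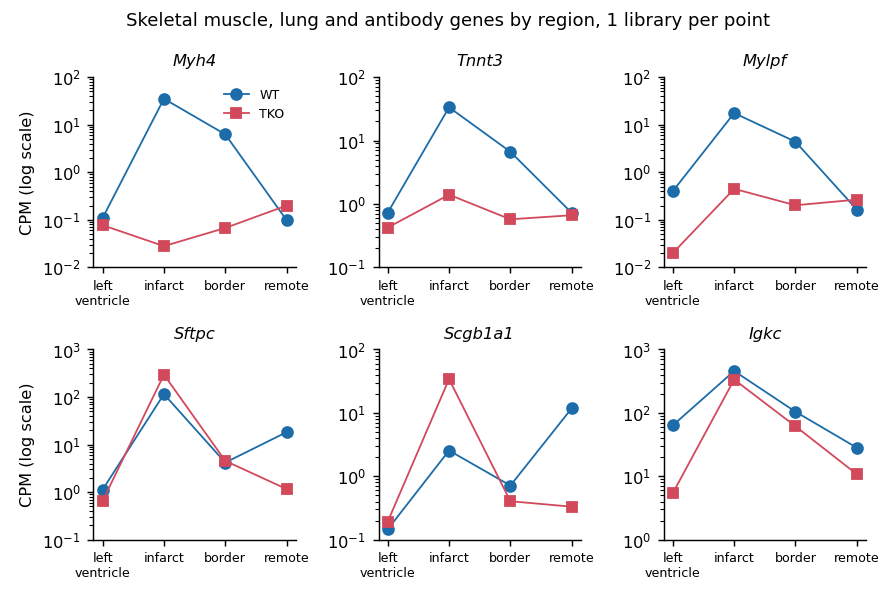
Levels of 3 fast skeletal muscle genes (top row), 2 lung epithelial genes, and the antibody gene *Igkc* (bottom row) in CPM on log scales that differ between panels, for the 4 regions of WT (blue circles) and TKO (red squares) hearts, 1 library per point and no error bars. Lines only join libraries of 1 genotype, and the 1 library with 0 counts (*Mylpf*, TKO left ventricle) is drawn at 0.02 CPM. The muscle genes are high only in the WT infarct and border zones, the lung genes peak in the infarct zone except for WT *Scgb1a1*, and *Igkc* is lower in the remote than in the border zone in both genotypes.

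Some of the most extreme WT ratios were not seen in TKO hearts, and several rested on a library with few or no counts. *Rprd2*, a regulator of RNA polymerase II, had 0 border and 257 remote counts in WT hearts, at least 86.75-fold higher, but 58 and 95 in TKO hearts (ratio 1.61, 1.15 to 2.28), with 1 count in the TKO left ventricle. *Ddx41*, an RNA helicase, had 8 and 298 counts in WT and 12 and 11 in TKO hearts, and was highest in the infarct zone of both genotypes (654 WT and 495 TKO counts). *Retnla* (a resistin-like protein of alternatively activated macrophages), *Aqp4* (a water channel), and *Qser1* had 0, 0, and 20 counts in the WT border library against 154, 146, and 715 in the remote library, with TKO ratios of 0.867, 1.03, and 1.28. At the other end, *Akap13*, an anchoring protein of protein kinase A, had 147 and 0 counts, at least 48.4-fold lower. Its 3 libraries above 0 were the WT border zone and both infarct zones, with 352 WT and 118 TKO counts in the latter. *Zfp457*, a zinc finger gene, had 190 and 30 counts in WT hearts and 68 and 69 in TKO hearts. The processed pseudogene models *Gm12895* and *Gm12896* had identical counts in all 8 libraries, with 1423 border and 4118 remote counts in WT hearts, so their ratio of 2.93 is 1 measurement; they were named after their values were seen. How the transcript-level estimates divided reads in these genes was not tested. For *Tmem163*, a zinc transporter, the difference was large in TKO hearts too. It had 8 border and 203 remote counts in WT hearts, a ratio of 25.7 (12.8 to 60.3). In TKO hearts it had 0 and 54 counts, at least 17.7-fold higher.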

How the data were processed

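RNA-seq of 8 mouse heart libraries, 1 per genotype and region, was analysed from the gene table that the authors deposited. Its values are estimated counts per gene: the authors trimmed reads, quantified transcripts by pseudoalignment against the mouse transcriptome (mm10), and used tximport to obtain gene values. The submitters' processing notes list Trim Galore 0.6.5, kallisto 0.46, and edgeR 3.34.1. Such estimates divide reads shared by similar transcripts, so values of near-identical genes are uncertain.

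Counts were scaled with TMM in edgeR 4.0.16 (R 4.3.3) over all 8 libraries. Genes whose mean reached 1 CPM of the unscaled library totals were kept, and the CPM levels reported use the TMM-scaled totals. The remote over border ratio was taken in Python 3.11.15 with pandas 2.3.3, numpy 2.4.6, and scipy 1.17.1. Its 95% interval is the exact Clopper-Pearson interval of the 2 counts. With 1 library a group, no *P* value was computed. Calls, list medians, and list ranges used a prior count of 2, whereas ratios of single genes did not. The procedure was tested on simulated data. Gene positions came from the GENCODE annotation of GRCm38 (16879 of 16994 genes matched), promoters from RefSeq (GRCm38.p6). Figures were drawn with matplotlib 3.10.9.

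Genes were named by rule: the 12 highest and 12 lowest ratios with at least 100 counts in the higher library, all atrial, conduction, and wall stress genes, and from every other list its first 2 genes, its 2 most abundant, and up to 4 with the largest fold in each direction. A few others were named after their values were seen. Members and lists were chosen with earlier results of these data known. Alternatives were total counts, DESeq2 1.42.0 size factors, TMM from the 2 libraries or without mitochondrial transcripts, other filters, prior counts, and folds. The stricter count filters and the fit without listed tissue genes were added after seeing the data, as were lists of immunoglobulin, neutrophil, and melanocyte genes. Values of some listed genes are not reported here.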

Additional observations from a re-analysis of the deposited data

Results flagged for a closer look

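Across all genes compared, 24 were 2-fold higher in the WT and 2-fold lower in the TKO remote zone, and 18 the other way. Among the genes that the naming rule covers, 7 were of this kind, as was the median of the lung and thymus list. With a prior count of 2, the median ratio of the lung and thymus list was 2.71 in WT and 0.36 in TKO hearts. The ratios of *Sftpc* were 4.31 and 0.266, and those of *Sftpa1* were 2.71 and 0.256. *Chil3*, a chitinase-like protein of macrophages, had 4.27 and 0.329, and *Mmp12* (macrophage elastase) had 2.4 and 0.378. The mesothelial genes *Msln* (mesothelin) and *Upk1b* (a uroplakin) had 14.6 and 0.153, and 2.13 and 0.366. *Msln* rested on 0 and 27 counts in WT and 11 and 0 in TKO hearts. *Mdfic*, an inhibitor of MyoD family proteins, had 0.0958 and 3.05, with 484 and 44 counts in WT and 90 and 283 in TKO hearts. With 1 library of each zone and genotype, none of these differences between genotypes was tested.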

How the results depend on the processing

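Each zone had 1 library, so no library could be left out and no spread between mice is known. No paired analysis was possible because no group had 2 libraries and no result came from a test. The count of genes at least 2-fold different (140 higher, 306 lower, 446 in all) depended on the filter and the limit. It was 600 higher, 1006 lower, and 1606 in all with no filter, 395, 773, and 1168 at 1.5-fold, and 71, 128, and 199 at 3-fold. With at least 10 counts in each of the 8 libraries it was 81, 171, and 252, and with at least 100 counts in the higher library 57, 133, and 190; the last 2 filters were added after seeing the data. Under the other scalings and prior counts, with at least 10 counts in both libraries, and with the listed atrial, skeletal muscle, lung, and immunoglobulin genes left out, these counts stayed within 1.5 times. The skeletal muscle median was 0.1719 with at least 10 counts in both libraries. No called value changed direction. Total counts alone moved the median ratio of all genes to 0.944 (log2 -0.08), which brought *Ankrd1* (0.483), *Cilp2* (0.488), and *Frzb* (0.483) past 2-fold. A prior count of 10 brought *Upk1b* (1.88), *Ly6c2* (0.594), *Iglc2* (0.549), *Arntl* (0.537), and *Grem1* (0.522) inside it. Genes with few counts limit the precision, since 25 higher and 27 lower calls had a library at 3 counts or fewer.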

Other observations

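Genes of neutrophils and of the acute phase, a list added after the values were seen, were lower in the WT remote zone. All 9 compared had a ratio below 1 and 8 were 2-fold lower, against 2.35% of all genes, with a median of 0.307 in WT and 0.4495 in TKO hearts. Members were chosen with such values known, so the count of 8 is a description and not support. *S100a8* and *S100a9*, the subunits of calprotectin, had 321 and 346 border counts against 96 and 128 remote counts, ratios of 0.303 (0.2385 to 0.3815) and 0.375 (0.303 to 0.4601). *Saa3* (serum amyloid A3) had 449 and 129 counts and *Slpi*, a protease inhibitor of leukocytes and epithelium, 353 and 66. *Il1b* (interleukin-1β) had 253 and 74.

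Over the immunoglobulin genes, added in the same way, 45 of 118 passed the filter, 42 had a ratio below 1, and 35 were 2-fold lower, again against 2.35%, with a median of 0.326 in WT and 0.248 in TKO hearts. Summed over all 118, the level was 267.8 CPM in the WT left ventricle and 1952, 424.6, and 126.4 CPM in the WT infarct, border, and remote zones. The TKO sums were 28.5, 1464, 251.7, and 54.04 CPM in the same order. Most of the level that carried genes past the filter thus lay in the infarct zones, and genes that failed it are not among the 45. The count of 35 describes genes kept partly for their level and is not support. *Igha*, the heavy chain of IgA, had 4774 and 1343 counts (0.285, 0.268 to 0.303), whereas *Ighm*, that of IgM, had 510 and 518 (1.03, 0.908 to 1.165).

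Of a melanocyte list, also added after the values were seen, 3 genes passed the filter and all 3 had a ratio above 1 (1 of 3 with total counts alone). *Mlana* (melan-A, a melanosome protein) had 12 and 121 counts in WT hearts, a ratio of 10.2 (5.64 to 20.3), and 1 and 27 counts in TKO hearts. *Dct*, an enzyme of melanin synthesis, had 104 and 107 counts in WT and 97 and 40 in TKO hearts.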
